A study of Mus musculus with 6 samples.

Results

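The measurements describe what lipopolysaccharide (LPS) did to gene expression in cultured mouse embryo fibroblasts that had not been heat shocked. The comparison used 4 of the 6 arrays of the series: Control and LPS, each from the same 2 cultures, paired by the culture number in the sample labels. The remaining 2 arrays (HS+LPS, the same LPS treatment after 1 h at 42 °C) did not enter the differences of the main fit. They entered its estimate of spread, the culture term, the pseudocount, the intensity filter and the choice of probe sets. In fits that left out a Control or LPS array, they also entered the difference itself. Both cultures were primary fibroblasts, connective tissue cells grown out of separate embryos of outbred ICR mice at embryonic day 15.5, kept in serum-containing medium. Control cells stayed untreated at 37 °C, and LPS cells received 1 μg/ml of Escherichia coli LPS for 4 h at 37 °C. Each culture came from 1 embryo, so a group held 2 biological samples from an outbred stock, and no vehicle-treated cells were analysed here. RNA was read on 1-colour Affymetrix arrays, and signals are given in scaled intensity units, in the order culture 1, culture 2.

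LPS is a surface glycolipid of Gram-negative bacteria. It is carried to the receptor pair Tlr4 and Md-2 by the proteins Lbp and Cd14. One adaptor branch, through Myd88, frees NF-kB from its IkB inhibitors and turns on chemokine and cytokine genes. The other, through Ticam1 (Trif), activates interferon regulatory factors and interferon beta, whose secondary signal through Stat proteins turns on antiviral genes. Both branches are held in check by induced inhibitors such as A20 (Tnfaip3) and Regnase-1 (Zc3h12a). Fibroblasts carry this pathway and are a local source of neutrophil- and monocyte-attracting chemokines.

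The promoters of 5 genes that rose are shown because they hold the DNA patterns of the factors named above. They were taken from RefSeq (GRCm38.p6) and run 5′ to 3′ on the gene's strand, from 250 bases before the start of the gene to 50 bases after it. Capitals mark every match to 1 of 3 patterns on either strand: kB, the NF-kB pattern (GGG, any 3 bases and TTCC, or GGG, any 2 bases and TTCCC), ISRE, the pattern of interferon-activated factors (GAAA, any 2 bases and GAAA) and AP-1 (TGA, any 1 base and TCA).
Cxcl2, chr5:90903649-90903948, + strand: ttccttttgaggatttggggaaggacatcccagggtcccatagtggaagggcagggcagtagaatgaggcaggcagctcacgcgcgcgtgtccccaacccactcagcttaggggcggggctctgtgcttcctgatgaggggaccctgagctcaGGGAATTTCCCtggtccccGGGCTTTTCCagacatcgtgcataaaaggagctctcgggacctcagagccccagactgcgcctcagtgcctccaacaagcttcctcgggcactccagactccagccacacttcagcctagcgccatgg
Cxcl10, chr5:92348840-92349139, - strand: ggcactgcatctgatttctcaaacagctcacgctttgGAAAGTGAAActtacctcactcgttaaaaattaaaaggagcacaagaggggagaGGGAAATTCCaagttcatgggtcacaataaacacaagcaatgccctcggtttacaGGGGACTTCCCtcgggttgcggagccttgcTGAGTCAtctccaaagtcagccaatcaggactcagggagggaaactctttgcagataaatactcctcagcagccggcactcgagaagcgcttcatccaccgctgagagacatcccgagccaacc
Il6, chr5:30012864-30013163, + strand: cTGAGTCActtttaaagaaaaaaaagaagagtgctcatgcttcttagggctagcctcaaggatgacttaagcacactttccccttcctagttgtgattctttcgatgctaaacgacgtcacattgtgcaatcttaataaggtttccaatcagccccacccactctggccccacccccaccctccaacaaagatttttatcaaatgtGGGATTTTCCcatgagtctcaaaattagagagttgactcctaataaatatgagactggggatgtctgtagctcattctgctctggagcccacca
Gbp2, chr3:142620413-142620712, + strand: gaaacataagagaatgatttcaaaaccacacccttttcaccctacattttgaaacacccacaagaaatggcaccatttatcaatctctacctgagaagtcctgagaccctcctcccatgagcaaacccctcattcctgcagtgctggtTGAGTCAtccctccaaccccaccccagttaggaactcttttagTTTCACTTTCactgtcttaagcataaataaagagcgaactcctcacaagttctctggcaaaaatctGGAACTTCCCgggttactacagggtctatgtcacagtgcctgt
Ifit1, chr19:34640639-34640938, + strand: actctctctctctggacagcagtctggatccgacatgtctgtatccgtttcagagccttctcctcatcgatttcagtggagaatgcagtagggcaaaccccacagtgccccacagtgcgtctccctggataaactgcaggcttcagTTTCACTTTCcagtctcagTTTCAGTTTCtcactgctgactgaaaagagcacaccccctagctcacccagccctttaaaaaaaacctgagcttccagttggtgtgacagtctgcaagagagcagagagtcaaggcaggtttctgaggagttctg
The neutrophil chemokine Cxcl2 holds overlapping kB matches that begin 97 and 96 bases before the start and another 78 bases before it. Cxcl10 holds an ISRE match 213 bases before the start, kB matches at 159, 104 and 103 bases, the last pair overlapping, and an AP-1 match at 74. Il6 holds a kB match at 44 bases and an AP-1 match at 249. Gbp2, a guanylate-binding protein, holds an AP-1 match at 102 bases, an ISRE match at 59 and a kB match 7 bases after the start. Ifit1, an interferon-induced RNA-binding protein, holds ISRE matches at 104 and 85 bases and no kB match in this window.

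Among 12917 genes tested, 266 were higher with LPS and 93 were lower (limma with the culture as a block, Benjamini-Hochberg adjusted p under 0.05). These are 2.06% and 0.72% of the genes tested, the shares to set beside the counts by gene list below. The genes that rose moved further: their median log2 difference was 1.07, against -0.61 for those that fell and -0.0469 for all genes tested. Of the genes that rose, 17 changed at least 8-fold, 31 between 4- and 8-fold, 98 between 2- and 4-fold, 77 between 1.5- and 2-fold and 43 less. Of the genes that fell, 2 changed between 4- and 8-fold, 10 between 2- and 4-fold, 39 between 1.5- and 2-fold and 42 less. Both LPS arrays were above both Control arrays for 241 of the 266 genes that rose, where 13.1% of all genes tested showed that order. Both LPS arrays were below both Control arrays for 59 of the 93 that fell, against 18.3% of all genes.

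The counts depended on how the spread was estimated. With no block for the culture, 19 genes (0.147%) were higher and 0 lower (limma; 410 and 219 at an unadjusted p under 0.05). The 19 were the chemokines Ccl2, Ccl3, Ccl5, Ccl7, Ccl9, Cx3cl1, Cxcl2 and Cxcl10, together with Acod1, Ch25h, Cmpk2, Icam1, Irgm2, Nfkbiz, Nos2, Tlr2, Tnfaip3, Tnip1 and Zc3h12a. When the spread was not allowed to depend on signal intensity, 11 genes were higher and 0 lower with the block (limma; 759 and 863 at an unadjusted p under 0.05): Ccl3, Ccl5, Ccl9, Cxcl10, Gbp3, Icam1, Ifit1, Iigp1, Nos2, Tlr2 and Zc3h12a. All other calls below rest on the intensity trend. Leaving out Control 1, LPS 1, Control 2 or LPS 2 gave 182, 147, 161 and 170 genes higher and 33, 22, 16 and 21 lower. Leaving out HS+LPS 1 or HS+LPS 2 gave 571 and 573 higher and 430 and 434 lower. Of the calls reported here, 110 of the 266 rises and 2 of the 93 falls held whichever array was left out.

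**Figure D1:**
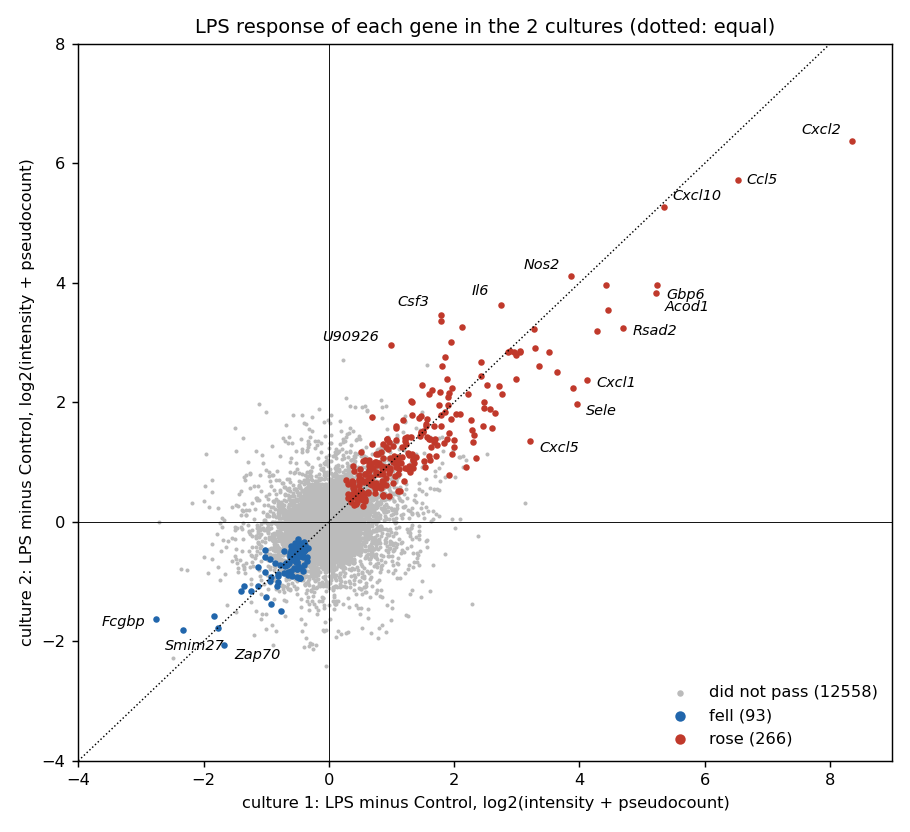
Response to LPS in culture 1 (horizontal) and culture 2 (vertical), each as the LPS minus Control difference of log2(intensity + pseudocount), for every gene tested. Red points rose, blue points fell and grey points did not pass the test; the dotted line marks equal responses, and all 266 red and 93 blue points have the same sign in both cultures.

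The fit with the culture as a block favours genes whose 2 responses agree, so the shared sign and like medians of the called genes follow in part from how they were called. The genes that rose had a median log2 difference of 1.08 in culture 1 and 1.04 in culture 2, and 146 of the 266 rose further in culture 1. The genes that fell had medians of -0.55 and -0.65. Over all genes tested, 63.2% moved in the same direction in both cultures, and the responses correlated across genes at r = 0.46; genes are not independent replicates, and each culture's response uses its own Control array. The levels themselves differed between the cultures for 2792 genes (21.6% of those tested, limma culture term), among them 110 of the 266 genes that rose and 61 of the 93 that fell. The cultures also differed in sex-linked genes: Eif2s3y, on the Y chromosome, read 368 and 0.114 in Control and 369 and 2.33 with LPS, and Xist, made from the inactive X chromosome, 12.4 and 398 in Control and 8.25 and 380.04 with LPS. The labelled pairing matched in both groups.

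The widest gaps in response between the cultures, among genes that rose, were in Sele, U90926, Cxcl2, Cxcl5 and Cxcl1, and 20 of the 266 responses were over 1 log2 unit apart. Sele encodes E-selectin, which slows rolling leukocytes. It read 4.71 and 6.53 in Control and 123 and 35.5 with LPS, so the LPS arrays were both higher but far from each other: the log2 difference was 3.97 in culture 1 and 1.97 in culture 2. Its call was lost without Control 1 or LPS 1 (adjusted p up to 0.144). U90926, a transcript of unsettled function, read 516 and 25.2 in Control and 1026 and 219.7 with LPS; here the groups overlapped, because Control in culture 1 was above LPS in culture 2, and the call was lost without LPS 2 (adjusted p up to 0.0829). At the other end, Gpr84, a receptor for medium-chain fatty acids, responded alike in both cultures (9.98 and 9.31 in Control and 44.9 and 42.2 with LPS), as did Mndal, an interferon-inducible nuclear protein (18.7 and 19.9 in Control and 73.05 and 77.3 with LPS). Gpr84 lost its call without Control 1, LPS 1, Control 2 or LPS 2 (adjusted p up to 0.136), and Mndal without LPS 1 or Control 2 (adjusted p up to 0.116). The other 3 genes with the least difference between cultures were Tnfsf11, which held with any array left out, Apobr, which lost its call without Control 1, LPS 1, Control 2 or LPS 2 (adjusted p up to 0.269), and Snapc1 without Control 1, LPS 1, Control 2 or LPS 2 (adjusted p up to 0.318).

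Chemokines that attract monocytes and T cells rose strongly. Of 14 CC chemokines tested, 9 rose and 0 fell, with a list median log2 difference of 1.58. Ccl5 (RANTES), which attracts T cells and monocytes, read 2.69 and 10.2 in Control and 555 and 712 with LPS; 1 Control array lay under the noise level of the arrays (6.004 to 7.669, from probe sets for bacterial genes) and the other just above it. The log2 difference was 6.12 (SE 0.23, limma adjusted p = 5.16e-06). Ccl3 (MIP-1 alpha) read 1.897 and 3.87 in Control and 109.6 and 109 with LPS, with both Control arrays under the noise level, so its rise was at least 10.9-fold (adjusted p = 0.000351). Ccl20, which recruits Ccr6-bearing lymphocytes and dendritic cells, read 195 and 67.9 in Control and 2027 and 429 with LPS. The cultures differed in level and the groups did not overlap, with a fold of 7.88. Ccl9 read 33.9 and 30.7 in Control and 287 and 239.9 with LPS, a fold of 7.46. The monocyte chemokines Ccl2 (MCP-1) and Ccl7 (MCP-3) were already bright. Ccl2 read 1449 and 1309.7 in Control and 4642 and 3987 with LPS and rose 3.12-fold, and Ccl7 read 616 and 611 in Control and 1808 and 1856 with LPS and rose 2.97-fold (adjusted p = 1.63e-05). Ccl2 with LPS was the brightest of all genes that rose. The array maxima were 6931 to 8434, and whether signals this high still rise in proportion was not tested. Of the 9 calls, 6 held with any array left out. Ccl4 lost its call without Control 1 or LPS 1 (adjusted p up to 0.246), Ccl11 without Control 1, Control 2 or LPS 2 (adjusted p up to 0.196) and Ccl8 without Control 1, Control 2 or LPS 2 (adjusted p up to 0.352).

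The CXC chemokines and Cx3cl1 held the largest change of all genes tested. Of 14 members tested, 8 rose and 0 fell, and the list median was 2.14. Cxcl2 (MIP-2), a neutrophil attractant, read 0.285 and 7.34 in Control and 1189.8 and 886 with LPS. In Control, culture 1 lay under the noise level and culture 2 just above that of its array, and the log2 difference was 7.36 (SE 0.37, limma adjusted p = 1.63e-05), a size that depends on the pseudocount. Cxcl10 (IP-10), which attracts T cells, read 11.2 and 7.85 in Control and 591 and 428 with LPS, with a log2 difference of 5.31 (SE 0.22, adjusted p = 6.38e-06). Cxcl3 read 4.14 and 11.6 in Control and 161 and 172 with LPS and Cxcl11 9.79 and 7.15 in Control and 125 and 94.9 with LPS. Each LPS value of these genes stood well apart from both Control values. Cxcl1 (KC) read 208 and 702 in Control and 3689.6 and 3646 with LPS: the cultures started apart and reached nearly the same level with LPS. Its response was 4.12 in culture 1 and 2.37 in culture 2. Cxcl5 read 243 and 1402 in Control and 2286 and 3569 with LPS, again with a much higher Control level in culture 2, and its responses were 3.22 and 1.35. The membrane-bound chemokines Cx3cl1 and Cxcl16 rose 5.48-fold and 3.99-fold. Cxcl11 lost its call without LPS 1 or Control 2 (adjusted p up to 0.146); the other 7 held with any array left out.

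**Figure D2:**
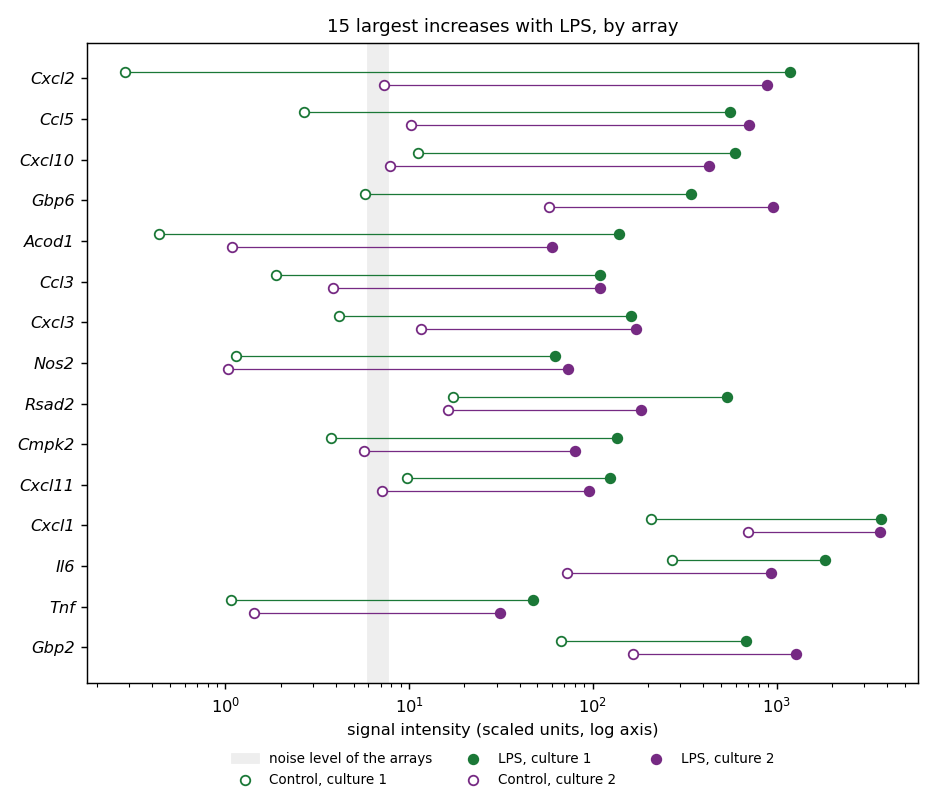
Signal on each array for the 15 genes with the largest increases, on a log axis in scaled intensity units; open circles are Control, filled circles LPS, and lines join arrays of the same culture (green, culture 1; purple, culture 2). The grey band is the noise level (6.004 to 7.669); every filled circle lies to the right of both open circles of its gene.

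Of 19 cytokines tested, 6 rose and 0 fell (list median 0.55). Il6, a cytokine that drives the acute phase response, read 271 and 72.3 in Control and 1832 and 930.5 with LPS; the LPS arrays were both above both Control arrays, and the fold was 9.08 (log2 difference 3.18, SE 0.36, adjusted p = 0.00173). Lif, of the same cytokine family, read 89.3 and 35.5 in Control and 607 and 185 with LPS, a fold of 5.65. Tnf read 1.07 and 1.44 in Control and 47.5 and 31.1 with LPS. Its Control values were under the noise level, its LPS values above it, and the rise was at least 4.06-fold (adjusted p = 0.00433). Il1b read 15.3 and 15.5 in Control and 99.8 and 67.3 with LPS, so all 4 values were above noise and the groups were separate. Tslp, an epithelial and stromal cytokine, read 40.6 and 2.14 in Control and 346 and 34.9 with LPS, and the groups overlapped. Tnfsf11 (RANKL), which drives osteoclast formation, rose 2.83-fold. Tnf and Il1b lost their calls without LPS 1 (adjusted p up to 0.124 and 0.0838), and Tslp without LPS 1 or Control 2 (adjusted p up to 0.308). Ifnb1, the interferon beta gene, lay under the intensity filter and was not tested; it read 5.82 and 11.9 in Control and 0.992 and 7.502 with LPS.

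Of 33 growth factors tested, 8 rose (24.2%) and 4 fell (12.1%), against 2.06% and 0.72% of all genes tested. The list median was 0.16. All 3 colony-stimulating factors tested rose. Csf2 (GM-CSF) read 1.18 and 5.72 in Control and 53.7 and 48.2 with LPS and Csf3 (G-CSF) 7.31 and 2.01 in Control and 33.6 and 55.7 with LPS, with all Control values under the noise level of their arrays and rises of at least 5.26-fold and 4.53-fold. Csf1, the macrophage growth factor, was bright throughout (1380.3 and 798 in Control and 2725 and 1672 with LPS) and rose 2.03-fold (adjusted p = 0.000209). Angptl4, an inhibitor of lipoprotein lipase, read 111 and 225 in Control and 321 and 653 with LPS and rose 2.86-fold. Ereg (epiregulin), a ligand of the EGF receptor family, read 444 and 164 in Control and 1116 and 572 with LPS, a fold of 2.94, and lost its call without LPS 1 (adjusted p up to 0.0796). Vegfc, a lymphatic growth factor, rose 2.26-fold and Fgf7 1.83-fold. The 4 that fell were Bmp4 (373 and 291 in Control and 183 and 162 with LPS), Kitl, Tgfb3 and Pdgfc, with log2 differences of -0.92, -0.77, -0.66 and -0.53. Angptl4, Csf1, Fgf7 and Vegfc held with any array left out. None of the 4 falls did: Bmp4 lost its call without Control 1, LPS 1 or Control 2 (adjusted p up to 0.151), Kitl without Control 1, LPS 1 or Control 2 (adjusted p up to 0.209), Tgfb3 without LPS 1, Control 2 or LPS 2 (adjusted p up to 0.27) and Pdgfc without Control 1, LPS 1 or LPS 2 (adjusted p up to 0.0649). Csf2 lost its call without LPS 1 (adjusted p up to 0.0507), and Csf3 without Control 2 or LPS 2 (adjusted p up to 0.172).

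Of 26 receptors, adaptors and kinases of LPS sensing tested, 3 rose (11.5%, against 2.06% of all genes tested) and 0 fell. The list median was 0.28, beside -0.0469 for all genes tested. Tlr2, the receptor for bacterial lipoproteins, read 134 and 109 in Control and 1142 and 807 with LPS, and the lowest LPS value was several times the highest Control value. Its log2 difference was 2.95 (SE 0.11, adjusted p = 5.16e-06). Ikbke, a kinase upstream of interferon regulatory factors, read 61.5 and 68.5 in Control and 194 and 186 with LPS, and Lbp, the LPS-binding protein, 61.4 and 74.2 in Control and 149 and 188 with LPS; they rose 2.83-fold and 2.41-fold. All 3 held with any array left out, but Lbp lost its call with the mean of all probe sets of a gene. The LPS receptor gene Tlr4 read 94.1 and 76.04 in Control and 128 and 117 with LPS and did not pass (log2 difference 0.52, SE 0.14, adjusted p = 0.118). Cd14, the co-receptor, read 58.03 and 64.2 in Control and 118 and 93.2 with LPS (adjusted p = 0.0683), and the adaptor gene Myd88 229.8 and 302 in Control and 289 and 387 with LPS (adjusted p = 0.13); in these 3 genes both LPS arrays were brighter than the Control array of the same culture.

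Genes of the NF-kB family and its inhibitors rose in 7 of 12 tested, with 0 falling and a list median of 0.81. Nfkbie (IkB epsilon) read 28.4 and 64.8 in Control and 470.2 and 317 with LPS, a fold of 8.37. Nfkbia (IkB alpha), the main inhibitor, was bright before LPS and read 1271 and 1587 in Control and 3228 and 3245 with LPS, a fold of 2.28 (adjusted p = 0.0002). Nfkbiz (IkB zeta), a nuclear cofactor for Il6 and Lcn2, read 417 and 439.5 in Control and 1238 and 1182 with LPS; replicate arrays nearly coincided and the adjusted p was 2.07e-05. Relb and Nfkb2, the subunits of the non-canonical pathway, rose 2.55-fold and 3.099-fold. Rela, the main activating subunit, read 493 and 416 in Control and 709 and 549.6 with LPS, a fold of 1.37. Nfkbia, Nfkbie, Nfkbiz and Relb held with any array left out. Nfkb2 lost its call without LPS 1 or LPS 2 (adjusted p up to 0.0683), Nfkbib without Control 1, LPS 1 or LPS 2 (adjusted p up to 0.216) and Rela without Control 1, LPS 1, Control 2 or LPS 2 (adjusted p up to 0.224).

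Of 31 genes of the feedback list (inhibitors of the pathway, RNA-decay factors and phosphatases), 5 rose (16.1%, against 2.06% of all genes) and 0 fell. The list median was 0.11, beside -0.0469 for all genes tested. Zc3h12a (Regnase-1), which degrades Il6 and other cytokine mRNAs, read 46.3 and 47.4 in Control and 411 and 364 with LPS, a log2 difference of 2.96 (SE 0.12, adjusted p = 5.84e-06). Tnfaip3 (A20), a ubiquitin-editing enzyme, read 72.6 and 79.2 in Control and 419 and 330.4 with LPS, and its partner Tnip1 326 and 353 in Control and 1068 and 926 with LPS; neither gene's groups overlapped. Birc3 (cIAP2), a ubiquitin ligase of TNF receptor signalling, rose 4.08-fold. Tank rose 1.88-fold and lost its call without LPS 1 or Control 2 (adjusted p up to 0.194). Socs3, an inhibitor of cytokine receptor signalling, read 363 and 801 in Control and 220.3 and 693 with LPS and did not pass (adjusted p = 0.182), and the phosphatase gene Dusp1 read 730.2 and 212 in Control and 792 and 229.6 with LPS (adjusted p = 0.925).

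Adhesion molecules and cytokine receptors rose in 11 of 36 tested, with 0 falling and a list median of 0.52. Icam1, the leukocyte adhesion ligand, read 247 and 198 in Control and 1343 and 1089.9 with LPS, so LPS and Control were far apart on both arrays of each (log2 difference 2.43, SE 0.087, adjusted p = 5.16e-06). Vcam1 read 430.2 and 672 in Control and 2152 and 1836 with LPS, a fold of 3.68. Selp (P-selectin) read 280.1 and 84.6 in Control and 671 and 231 with LPS; the groups overlapped because culture 1 was brighter throughout, but the response was alike, 1.25 and 1.42 on the log2 scale. The death receptor gene Fas rose 2.73-fold, and the TNF receptor gene Tnfrsf1b 2.85-fold. Cd44, the hyaluronan receptor, read 2432 and 1356 in Control and 3617 and 2798 with LPS, a fold of 1.75. It was among the 5 brightest genes that rose, with Ccl2, Cxcl1, Nfkbia and the autophagy receptor gene Sqstm1 (2420.0 and 2203 in Control and 4031 and 3079.7 with LPS), whose call was lost without LPS 1 (adjusted p up to 0.0638). Il15ra read 12.6 and 1.48 in Control and 66.3 and 43.01 with LPS and Cd40 26.2 and 19.1 in Control and 141 and 62.2 with LPS. Il15ra lost its call without LPS 2 (adjusted p up to 0.0513) and Cd40 without LPS 1 (adjusted p up to 0.0632), while Cd44, Fas, Icam1, Selp, Tnfrsf1b and Vcam1 held with any array left out.

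Of 20 effector genes tested, which include enzymes of inflammatory and antimicrobial metabolites, 12 rose and 0 fell, with a list median of 1.37. Acod1, which makes itaconate, read 0.438 and 1.09 in Control and 138 and 60.1 with LPS, and Nos2, which makes nitric oxide, 1.14 and 1.04 in Control and 62.4 and 73.05 with LPS. For both genes the Control arrays lay under the noise level, and the rises were at least 9.203-fold and 6.88-fold (adjusted p = 0.000961 and 0.000785). Slc7a2, which carries the arginine that Nos2 uses, read 136 and 180.1 in Control and 1098 and 958 with LPS, a fold of 6.44. Gch1, the first enzyme of the tetrahydrobiopterin cofactor that Nos2 needs, rose 3.67-fold. Ch25h, which makes 25-hydroxycholesterol, read 377 and 264 in Control and 1294 and 1198 with LPS and rose 3.91-fold. Ptges, the inducible prostaglandin E synthase, rose 2.81-fold (adjusted p = 0.000102). Ptgs2 (Cox-2), which supplies the substrate of Ptges, read 1223 and 309 in Control and 2610.2 and 830.2 with LPS; culture 1 was brighter throughout, the groups overlapped, and the difference did not pass (log2 difference 1.25, SE 0.33, adjusted p = 0.101). Sod2, the mitochondrial superoxide dismutase, rose 2.21-fold and the metalloreductase gene Steap4 3.07-fold. Of the 12 calls, 9 held with any array left out. Arg2 lost its call without Control 1, LPS 1, Control 2 or LPS 2 (adjusted p up to 0.311), Upp1 without LPS 1, Control 2 or LPS 2 (adjusted p up to 0.158) and Ier3 without LPS 1, Control 2 or LPS 2 (adjusted p up to 0.278).

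Secreted innate immune proteins rose in 5 of 15 complement and acute phase genes tested, with 0 falling and a median of 0.35. Saa3 (serum amyloid A) read 134 and 596 in Control and 862 and 2107 with LPS, with a higher level in culture 2 and a fold of 4.71. Lcn2 (lipocalin-2), which sequesters bacterial siderophores, read 217 and 137 in Control and 739.8 and 541 with LPS, a fold of 3.61 (adjusted p = 2.74e-05). Ptx3, a pattern-recognition pentraxin, read 763 and 768 in Control and 2520.4 and 1887 with LPS. The groups were separate in all 3 genes. Cfb, complement factor B, rose 3.13-fold and lost its call without LPS 1 or LPS 2 (adjusted p up to 0.0622). Among 23 matrix proteases and their inhibitors, 6 rose and 2 fell (26.1% and 8.7%, against 2.06% and 0.72% of all genes). The list median was 0.06. The largest rise was in Serpinb2 (PAI-2), an inhibitor of plasminogen activators, which read 70.9 and 20.9 in Control and 285 and 193 with LPS (5.61-fold) and lost its call without LPS 1, Control 2 or LPS 2 (adjusted p up to 0.164). The gelatinase gene Mmp9 read 9.22 and 26.5 in Control and 32.1 and 142 with LPS (3.71-fold), so 1 Control array was close to 1 LPS array, and it lost its call without Control 2 or LPS 2 (adjusted p up to 0.101). Mmp10, Mmp3 and Mmp13, stromelysins and a collagenase, rose 3.82-, 2.33- and 1.74-fold and held with any array left out. The aggrecanase gene Adamts4 rose 2.56-fold, and Adamts1 and Adamts5 fell with log2 differences of -0.65 and -0.52. Adamts4 lost its call without Control 1, LPS 1 or Control 2 (adjusted p up to 0.233), Adamts1 without Control 2 or LPS 2 (adjusted p up to 0.116) and Adamts5 without Control 1, LPS 1, Control 2 or LPS 2 (adjusted p up to 0.145).

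The antiviral genes normally induced by interferon rose in 21 of 35 tested, with 0 falling and a list median of 1.01. Rsad2 (viperin), which makes a chain-terminating nucleotide, read 17.4 and 16.3 in Control and 537 and 184 with LPS, and its genomic neighbour Cmpk2, a mitochondrial nucleotide kinase, 3.78 and 5.703 in Control and 136 and 79.9 with LPS. Both were brighter with LPS in culture 1 than in culture 2, and in both the groups were separate (adjusted p = 0.000271 and 0.000392). For Cmpk2 the Control arrays lay under the noise level, and the rise was at least 10.4-fold. Ifit1 read 63.8 and 42.4 in Control and 488 and 325 with LPS, Ifit3 66.96 and 84.9 in Control and 272 and 415 with LPS and Ifit2 82.01 and 73.4 in Control and 188 and 179 with LPS. These RNA-binding proteins rose 7.24-, 4.31- and 2.31-fold. Oasl2, of the oligoadenylate synthetase-like proteins, read 24.8 and 23.5 in Control and 101 and 138 with LPS, a fold of 4.42. The deISGylase gene Usp18 rose 3.79-fold and the RNA sensor Ifih1 (Mda5) 3.25-fold. The RNA sensor Ddx58 (Rig-I) read 239 and 199 in Control and 359.9 and 349 with LPS, a fold of 1.61, and lost its call without Control 2 or LPS 2 (adjusted p up to 0.141). Of the 21 calls, 13 held with any array left out. Irf7, the interferon-induced regulatory factor, read 31.4 and 23.7 in Control and 59.5 and 57.7 with LPS and did not pass (adjusted p = 0.0792).

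All 9 immune GTPases tested rose, with a list median of 2.19, the highest of the lists examined. These proteins attack the vacuoles of intracellular pathogens. Gbp6 read 5.74 and 57.8 in Control and 342 and 956 with LPS, with a log2 difference of 4.61 (SE 0.33, limma adjusted p = 0.000168). Its Control value in culture 1 lay under the noise level of that array, so the size depends on the pseudocount. Gbp2 read 67.3 and 166 in Control and 686 and 1272 with LPS, and Gbp3 and Gbp7 rose 5.87-fold and 5.32-fold. In Gbp2, both LPS arrays exceeded both Control arrays. Iigp1 and Irgm2, of the immunity-related GTPases, read 26.4 and 44.6 in Control and 136 and 209 with LPS and 39.6 and 50.2 in Control and 179.6 and 185 with LPS. Ifi47 and Irgm1 changed least, 2.52-fold and 1.58-fold; both lost their calls without Control 2 or LPS 2 (adjusted p up to 0.0626 and 0.346). Members of these families are close in sequence, and probe sets may read more than 1 of them.

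Of 16 interferon regulatory factors, Stats and Janus kinases tested, 3 rose (18.8%, against 2.06% of all genes tested) and 0 fell (median 0.28). Jak2 read 132 and 162 in Control and 289 and 349 with LPS and held with any array left out. Irf1 read 148 and 223 in Control and 270.4 and 358 with LPS and lost its call without Control 1, LPS 1 or LPS 2 (adjusted p up to 0.119), and Stat5a without Control 1, LPS 1, Control 2 or LPS 2 (adjusted p up to 0.186). Among 17 genes of MHC class I presentation, 6 rose and 0 fell (median 0.50). The immunoproteasome subunits Psmb8 and Psmb10 rose 3.02-fold and 2.102-fold, the peptide transporter subunit Tap2 2.18-fold and the chaperone gene Tapbp 1.59-fold; these 4 held with any array left out. Tapbpl, a tapasin-related peptide editor, rose 2.12-fold and lost its call without LPS 1, Control 2 or LPS 2 (adjusted p up to 0.175). The class I heavy chain gene H2-K1 read 577 and 785 in Control and 848 and 1100.1 with LPS and lost its call without Control 1, LPS 1 or Control 2. It also lost its call when probe sets of the cross-hybridising type were left out, and with the mean of all probe sets of a gene.

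**Figure D3:**
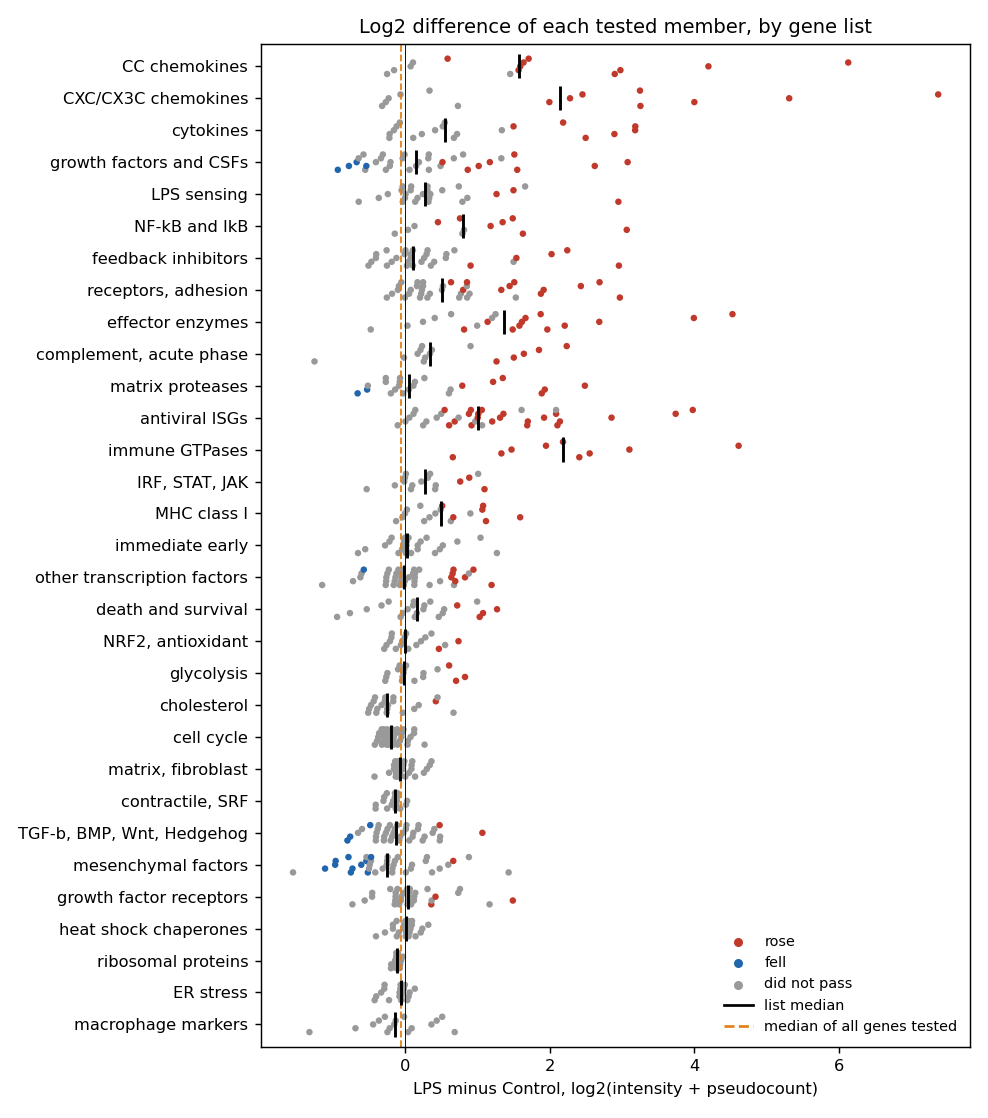
Log2 difference (LPS minus Control) of every tested member of each gene list; red points rose, blue points fell, grey points did not pass. The black tick is the list median and the dashed line the median of all genes tested (-0.0469); the immune GTPase, CXC and CC chemokine lists have medians of 2.19, 2.14 and 1.58, and the mesenchymal factor list one of -0.24.

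Of 41 transcription factors outside the families above, 7 rose and 1 fell (median -0.01), and 2 of the 7 rises held with any array left out. Ets1 read 291 and 216 in Control and 709 and 474 with LPS, Epas1 (Hif-2 alpha), a hypoxia factor, 229 and 157 in Control and 389 and 351 with LPS and Ets2 178 and 394 in Control and 329 and 685 with LPS. Their folds were 2.297, 1.93 and 1.78, and only the groups of Ets2 overlapped. Cebpb, a partner of NF-kB at cytokine genes, rose 1.62-fold. Ets1 lost its call without LPS 1 or Control 2 (adjusted p up to 0.0676), Epas1 without Control 2 (adjusted p up to 0.0537), Ets2 without Control 1 or LPS 2 (adjusted p up to 0.103) and Cebpb without LPS 1 or Control 2 (adjusted p up to 0.0954). Cebpd, an acute phase activator, read 935 and 924 in Control and 1477 and 1493 with LPS, and Nfe2l2 (Nrf2), the antioxidant response factor, 696 and 809 in Control and 1145 and 1236 with LPS; these were the 2 that held. Among 18 Nrf2 target and other antioxidant genes, 2 rose (11.1%, against 2.06% of all genes tested) and 0 fell. Hmox1 (heme oxygenase) rose 1.67-fold and Srxn1 1.39-fold. Both lost their calls without LPS 1, Control 2 or LPS 2. Of 23 cell death and survival genes, 4 rose (17.4%, against 2.06% of all genes tested) and 0 fell. Casp4 (caspase-11), which binds cytosolic LPS, read 96.4 and 107 in Control and 212 and 226 with LPS and held with any array left out. Gsdmd, the pore-forming protein that Casp4 cleaves, rose 2.42-fold and lost its call without Control 1 or LPS 1 (adjusted p up to 0.0766). Bid, which links death receptors to mitochondria, rose 2.05-fold and lost its call without Control 1 or LPS 2 (adjusted p up to 0.0847), and Tnfaip8 rose 1.65-fold and lost its call without Control 1, LPS 1 or Control 2 (adjusted p up to 0.121). Of 17 glycolytic genes, 3 rose (17.6%, against 2.06% of all genes tested): the glucose transporter Slc2a1 (1.53-fold), hexokinase Hk2 (1.63-fold) and Pfkfb3 (1.78-fold). Their calls were lost without LPS 1, Control 2 or LPS 2 (adjusted p up to 0.119), without LPS 1 or Control 2 (adjusted p up to 0.0581) and without LPS 1, Control 2 or LPS 2 (adjusted p up to 0.379). Of 38 genes of TGF-beta, BMP, Wnt and hedgehog signalling, 2 rose and 3 fell (5.26% and 7.89%, against 2.06% and 0.72% of all genes). Ptch1, the hedgehog receptor, read 185 and 127 in Control and 416 and 256 with LPS and held with any array left out. Skil, an inhibitor of Smad signalling, rose 1.397-fold and lost its call without Control 1, LPS 1, Control 2 or LPS 2 (adjusted p up to 0.264). The 3 that fell were Wnt4, the Wnt receptor gene Fzd2 and Ski, with log2 differences of -0.79, -0.75 and -0.48. Wnt4 lost its call without Control 1, LPS 1, Control 2 or LPS 2 (adjusted p up to 0.35), Fzd2 without Control 2 (adjusted p up to 0.0597) and Ski without Control 1, LPS 1, Control 2 or LPS 2 (adjusted p up to 0.223). Of 32 growth factor receptors, binding proteins and feedback inhibitors, 3 rose (9.38%, against 2.06% of all genes tested) and 0 fell. The largest rise was in Nrp2, a receptor for semaphorins and Vegfc. Nrp2 read 133 and 277 in Control and 408 and 732 with LPS and held with any array left out. Fgfr1 and the collagen receptor gene Ddr1 rose 1.34-fold and 1.29-fold, and both lost their calls without Control 1, LPS 1, Control 2 or LPS 2. Ddr1 also lost its call when probe sets of the cross-hybridising type were left out.

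The decreases were smaller than the increases, and fewer of them held when an array was left out. The largest decrease was in Fcgbp, an IgG Fc-binding mucin-like protein, which read 77.98 and 23.9 in Control and 8.66 and 5.45 with LPS (limma log2 difference -2.19, SE 0.40, adjusted p = 0.023). Its LPS value in culture 2 lay under the noise level of that array, so the size depends on the pseudocount. Smim27 read 29.5 and 24.98 in Control and 3.14 and 4.68 with LPS and Tmem171 25.9 and 21.1 in Control and 5.18 and 3.78 with LPS; their LPS arrays lay under the noise level, which sets falls of at least 3.06-fold and 2.68-fold. Each gene's groups were separate. Zap70, best known as a T cell kinase, read 55.3 and 62.04 in Control and 14.9 and 12.3 with LPS, all above noise. Cep131, a centriolar satellite protein, read 36.3 and 38.97 in Control and 11.6 and 15.6 with LPS, and the LIM-domain gene Lmcd1 262 and 73.1 in Control and 109 and 31.1 with LPS; the groups overlapped in Lmcd1. Lpl, lipoprotein lipase, read 69.8 and 235 in Control and 33.3 and 96.6 with LPS; the groups overlapped because culture 2 was brighter, and the response was -0.998 and -1.25. Of the 93 falls, those of Nr2f1 and Tnrc18 held with any array left out. Tnrc18 read 262 and 289 in Control and 147 and 157 with LPS (log2 difference -0.84, adjusted p = 0.00295). Fcgbp lost its call without Control 1, LPS 1 or Control 2 (adjusted p up to 0.171), Smim27 without Control 1, LPS 1 or LPS 2 (adjusted p up to 0.152), Tmem171 without Control 1, LPS 1, Control 2 or LPS 2 (adjusted p up to 0.329), Zap70 without LPS 1, Control 2 or LPS 2 (adjusted p up to 0.182), Cep131 without Control 1, LPS 1, Control 2 or LPS 2 (adjusted p up to 0.242), Lmcd1 without Control 1 (adjusted p up to 0.0649) and Lpl without Control 2 or LPS 2 (adjusted p up to 0.0805). The other genes among the 15 largest decreases were Krtap12-1, Hoxd13, Tatdn3, Lrrn3, Hoxa10, Nr2f1, Foxp2 and Prickle1. The brightest genes that fell, Cavin2 (a caveolar coat protein), Ctdsp2, Snai2, Idh1 (isocitrate dehydrogenase) and 2310022B05Rik, changed little, with log2 differences of -0.47, -0.44, -0.46, -0.42 and -0.40. Cavin2 read 2478 and 1215 in Control and 1936 and 809 with LPS and lost its call without LPS 1, Control 2 or LPS 2 (adjusted p up to 0.229), as did Ctdsp2 and Idh1 without the same arrays. In bulk cultures, fewer cells of a type and less RNA per cell cannot be told apart.

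Transcription factors of the embryonic mesenchyme were the list with the most decreases. Of 36 tested, 10 fell (27.8%, against 0.72% of all genes tested) and 1 (Zeb2) rose (2.78%, against 2.06%). The list median was -0.24. Nr2f1 (COUP-TF1), an orphan nuclear receptor, read 234 and 318 in Control and 121 and 159 with LPS, so both LPS arrays were at about the same distance below their Control (log2 difference -0.96, SE 0.10, adjusted p = 0.00134). Hoxa10, a limb and posterior patterning gene, read 93.4 and 96.1 in Control and 40.97 and 43.9 with LPS. Foxp2 read 166 and 148 in Control and 92.05 and 68.3 with LPS and Foxd1, a stromal factor, 145 and 157 in Control and 90.9 and 82.9 with LPS. Control and LPS values were separate in each of these genes. Twist1, which sets the mesenchymal state, read 152 and 196 in Control and 73.8 and 141 with LPS, and Snai2 (Slug), of the same role, 1525 and 1384 in Control and 1059.7 and 1046 with LPS. Meis1, Osr1, Foxc1 and Prrx2 also fell, with log2 differences of -0.72, -0.60, -0.53 and -0.51. Hoxd13 fell as well, with values of 52.8 and 141 in Control and 18.5 and 65.2 with LPS that overlapped between the groups; it lies outside the list. The count of 10 was not stable: 0 fell with no block or without the intensity trend, and 2, 1, 4 and 3 fell without Control 1, LPS 1, Control 2 and LPS 2. It was 15 without either HS+LPS array. Nr2f1 alone of the 10 held with any array left out.

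**Figure D4:**
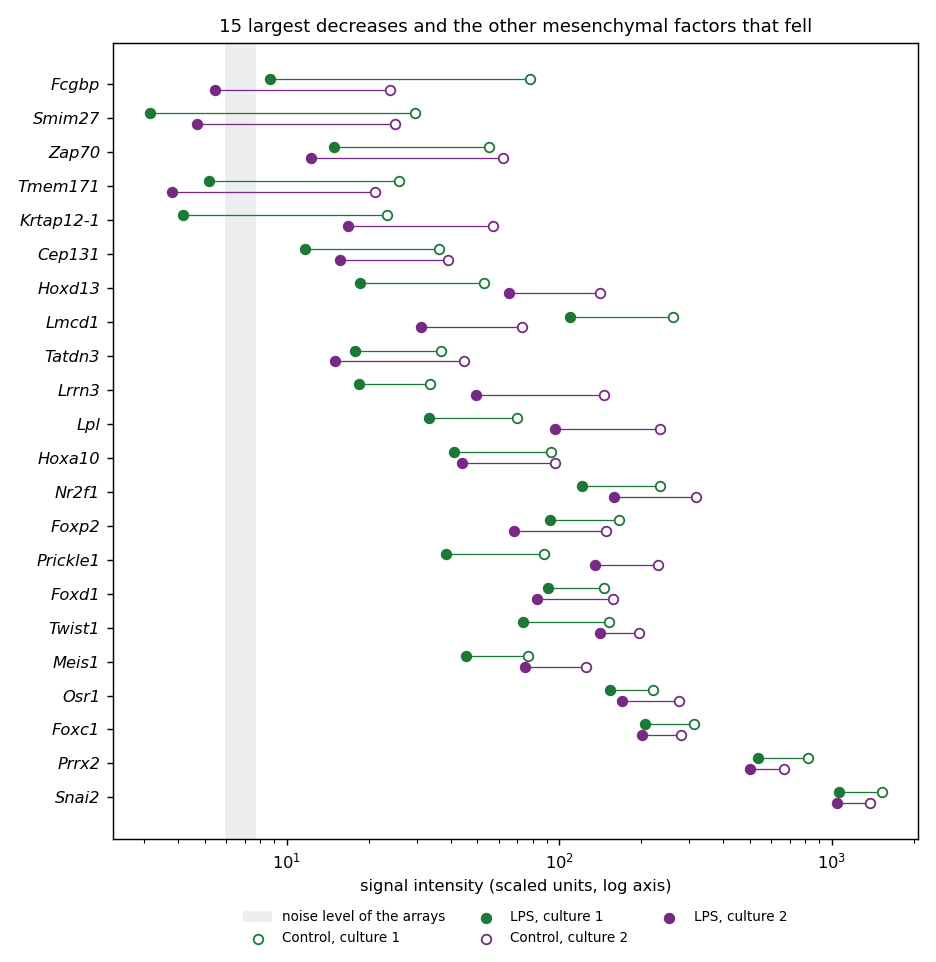
Signal on each array for the 15 genes with the largest decreases and the other mesenchymal transcription factors that fell, on a log axis in scaled intensity units; open circles are Control, filled circles LPS, and lines join arrays of the same culture (green, culture 1; purple, culture 2). The grey band is the noise level (6.004 to 7.669); each filled circle lies to the left of the open circle of its own culture.

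Several groups of genes held no call in either direction. None of 26 early response genes passed, with a median of 0.03; Fos, an immediate-early factor, read 149 and 223 in Control and 81.9 and 163 with LPS (adjusted p = 0.056), Egr1 599 and 717 in Control and 474 and 622 with LPS (adjusted p = 0.205) and Atf3 25.8 and 31.7 in Control and 22.3 and 34.7 with LPS (adjusted p = 0.948). None of 36 cell cycle genes, 30 matrix and fibroblast genes, 18 contractile genes, 24 heat shock chaperones, 14 ribosomal protein genes or 19 ER stress genes passed either, and their medians were -0.19, -0.07, -0.13, 0.02, -0.11 and -0.06. At an unadjusted p under 0.05 (limma), 6.78% of all genes tested were higher and 8.61% lower. Of the early response list, 4 of 26 were higher (Fosl1, Junb, Nr4a2 and Nr4a3) and 2 lower; of the cell cycle list, 0 of 36 were higher and 12 lower. In the matrix, contractile, chaperone, ribosomal and ER stress lists such genes numbered 4, 0, 2, 0 and 0 higher and 2, 4, 1, 1 and 3 lower. Of 21 cholesterol genes, 1 (Abca1, the cholesterol exporter) rose (4.76%, against 2.06% of all genes tested), and the median was -0.25. Abca1 lost its call without Control 1, LPS 1, Control 2 or LPS 2 (adjusted p up to 0.297). A gene that did not pass may still have changed by less than this design can show.

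All 30 matrix and fibroblast genes were above the noise level on all 4 arrays, among them Col1a1, the main collagen chain (3830.1 and 5119 in Control and 3888 and 4263 with LPS). Markers of other cell types were also present. Of 19 macrophage markers, 13 were above noise on all 4 arrays, among them Csf1r (97.5 and 47.5 in Control and 79.3 and 43.2 with LPS), Adgre1, Cd68 and Lyz2, and 3 were at or under noise on all 4 (Itgam, Fcgr3 and Aif1). Their summed signal was 1125 and 664 in Control and 1008 and 566 with LPS, and none of the 16 tested passed (limma; 0 higher and 2 lower at an unadjusted p under 0.05). Of 13 neural and glial markers, 10 were above noise on all 4 arrays and 0 were at noise on all 4; the brightest was the neuronal gene Stmn2 (1424 and 969 in Control and 1395 and 948 with LPS). They summed to 2616 and 1967 in Control and 2534 and 1818 with LPS. Markers above noise on all 4 arrays numbered 1 of 11 for lymphoid and mast cells, 5 of 12 for endothelium, 5 of 12 for epithelium, 5 of 14 for muscle and 6 of 11 for skeletal and adipose cells. None of the tested lymphoid and mast cell, endothelial, epithelial, muscle or neural markers passed (2, 6, 7, 6 and 11 tested, with 0, 0, 1, 1 and 0 higher and 0, 0, 0, 1 and 1 lower at an unadjusted p under 0.05), and of 7 skeletal and adipose markers Lpl fell. The part of such cells in the responses above was not tested.

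Where a gene had further probe sets above the filter, they moved with the one reported. For 140 of the genes that rose, 208 of 223 other probe sets (93.3%) were higher with LPS and 106 passed the test; for 55 of the genes that fell, 71 of 76 (93.4%) were lower and 18 passed. In both directions, 0 passed with the opposite sign. Among 3397 probe sets listed with no symbol or several, 42 (1.24%) were higher with LPS and 10 (0.294%) lower.

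The 3 promoter patterns were more frequent among genes that rose. The share is a description of 300-base windows for genes with exactly 1 RefSeq promoter listed: 8295 of the genes tested, 167 of those that rose and 50 of those that fell. A kB match was held by 14.97% of the promoters of genes that rose, 4.0% of those that fell and 7.318% of all. An ISRE match was held by 10.78%, 2.0% and 2.942%, and an AP-1 match by 13.17%, 4.0% and 4.834%. By list, 5 of 6 immune GTPase promoters and 11 of 24 antiviral gene promoters held an ISRE match, while 4 of 6 NF-kB and IkB gene promoters and 4 of 11 CXC chemokine promoters held a kB match. A match shows only that these letters occur in the window.

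**Figure D5:**
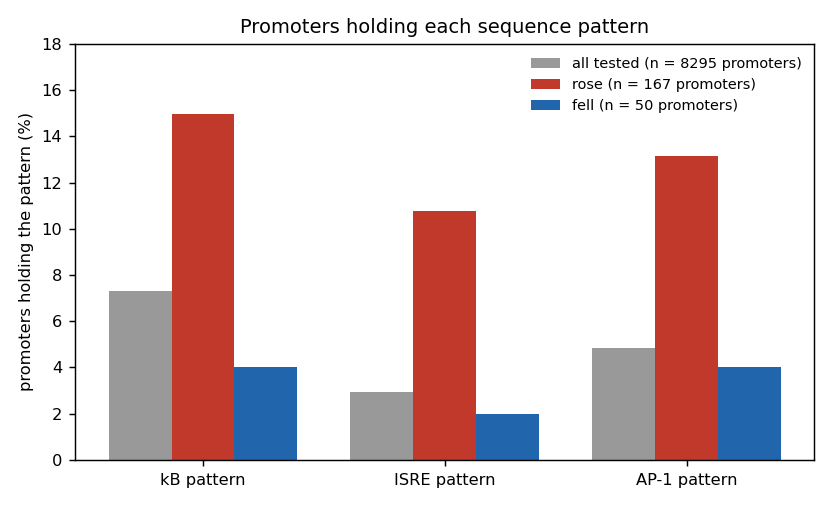
Percentage of 300-base promoter windows that hold the kB, ISRE or AP-1 pattern on either strand, for all genes tested (grey, 8295 promoters), genes that rose (red, 167) and genes that fell (blue, 50). The red bars stand at 14.97%, 10.78% and 13.17%, above the grey bars at 7.318%, 2.942% and 4.834%.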

How the data were processed

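Values were analysed as deposited: linear signal intensities of 45101 probe sets on 6 arrays, which the authors had scaled to a trimmed mean of 100.001 on every array; the software is not given in the sources used here, and array medians were 11.9 to 14.4. For each gene the brightest probe set was taken among those that the platform annotation pairs with 1 symbol (34945 probe sets), after leaving out 64 control probe sets and those under the 40th percentile of mean signal. The deposited intensities were turned into log2(intensity + 3.37), the 25th percentile of all values, which understates folds of dim genes. The noise level was each array's brightest of 27 Bacillus subtilis probe sets. The words "at least" mark folds against it where both arrays of a group lay at or under it. For 11 genes that rose, only 1 Control array was above it, among them Cxcl3, Sele, Il15ra, Tslp and Gbp6. The size of such folds depends on the pseudocount.

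The test was limma's (version 3.58.1, R 4.3.3, lmFit, eBayes with an intensity trend) over all 6 arrays, with the culture as a block. Calls took an adjusted p under 0.05 over all genes, and the fit left 2 residual degrees of freedom. The code was also run on simulated data drawn from the fitted model. Such data cannot show whether that model, with its intensity trend, suits these arrays. The labels number the cultures, and the design text of the series gives the cultures as coming from independent embryos. Deviations of same-numbered arrays from their group means correlated at 0.62 (Control and LPS), 0.57 and 0.54. P-values rest on how far the differences between groups disagreed between these cultures over all 6 arrays, HS+LPS included. This spread was pooled with that of genes of like intensity. The block takes out the difference in level between the cultures. Prior and residual degrees of freedom together were 8.73, so the p-values do not measure the spread of 1 gene's LPS response alone. Genes named were the 15 largest changes in each direction, up to 4 called members of each list with the largest differences, the 5 brightest called each way, the 5 rises that differed most and least between cultures, and Tlr4, Il6, Tnf, Ifnb1, Ptgs2, Csf3 and Il1b; other genes were chosen after their values were seen. The members and lists were chosen with earlier results of these data known.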

Additional observations from a re-analysis of the deposited data

Results flagged for a closer look

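Probe sets that the annotation gives no gene symbol, or several, were outside the comparison of genes. Of 3397 such probe sets above the intensity filter, 42 (1.24%) were higher with LPS and 10 (0.294%) were lower, by limma with the culture as a block and adjusted over these probe sets and the others together. The largest rise, in a probe set with no symbol listed, was from 37.4 and 25.5 in Control to 272 and 208 with LPS (log2 difference 2.82, SE 0.15, adjusted p = 2.14e-05). The next, also with no symbol, read 10.3 and 14.8 in Control and 54.5 and 156 with LPS, so the groups were separate in both.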

How the results depend on the processing

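Every called gene that the naming rule picked, and both culture medians, kept their direction under each alternative run. With no replicate block, 19 genes were higher and 0 lower, and without the intensity trend 11 and 0; the cause was not tested, but the block lowered the median standard error from 0.226 to 0.149. The 4 Control and LPS arrays alone gave 573 and 439. No filter left 47 lower, and median centring gave 144 lower. The mean of all probe sets of a gene gave 224 higher and 63 lower, sharing 207 and 54 with the calls reported here. Lbp, Cebpd and Ptx3, which held with any array left out, were among those that lost their calls with that mean. Leaving out 1 array gave 147 to 573 higher and 16 to 434 lower. The median responses of the genes that rose moved to 0.97 and 0.95 in cultures 1 and 2 with a pseudocount of 16, and to 1.02 and 1.08 with median centring. Under a pseudocount of 1 or 16, a filter at the 60th percentile, quantile normalization and probe sets without the cross-hybridising type, counts stayed within 1.5 times. Of the 266 rises, 9 held in all 10 processing alternatives other than the missing block, and 6 with that included; 0 of the 93 falls did. Signals near the noise level and 2 cultures limit what can be called.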

Other observations

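Solute carriers, the membrane transporters of nutrients and ions, rose in 12 of 234 tested (5.13%, against 2.06% of all genes tested) and fell in 0. These carriers, like the other gene families below, were picked by their symbols after the data were seen, so no test is given. After Slc7a2, the largest was Slc15a3, a lysosomal carrier of histidine and peptides, which read 7.74 and 3.59 in Control and 38.5 and 27.5 with LPS, with a log2 difference of 2.03. Slc2a6, of the glucose transporter family, read 32.3 and 41.8 in Control and 134 and 145 with LPS, and Slc39a14, a zinc and manganese importer, 273 and 226 in Control and 400.2 and 459.6 with LPS. The groups were separate in each of these genes. The prostaglandin carrier Slco2a1 read 210.5 and 152 in Control and 357 and 309 with LPS, and Slc25a37 (mitoferrin), which brings iron into mitochondria, 123 and 65.3 in Control and 266 and 130.1 with LPS. Slc15a3 lost its call without Control 1, LPS 1, Control 2 or LPS 2 (adjusted p up to 0.271), Slc2a6 held with any array left out, Slc39a14 lost its call without Control 2 or LPS 2 (adjusted p up to 0.126), Slco2a1 lost its call without Control 2 (adjusted p up to 0.0558) and Slc25a37 held with any array left out. Of 11 Parp genes tested, 4 rose (36.4%, against 2.06% of all genes tested): Parp14, Parp9, Parp12 and Parp8. Parp9 and Parp12 held with any array left out, Parp14 lost its call without LPS 1 (adjusted p up to 0.051) and Parp8 without Control 1, LPS 1, Control 2 or LPS 2 (adjusted p up to 0.353). Hox, Fox and Zfp genes, counted in the same way, fell in 2 of 30, 3 of 27 and 1 of 300 tested. Their shares were 6.67%, 11.1% and 0.333%, against 0.72% of all genes tested, so the Zfp share was the lower one. Gbp genes rose in 4 of 4 tested and Serpin genes in 2 of 19 (10.5%), against 2.06% of all genes tested. Of 10 frizzled receptors for Wnt proteins, 2 fell (20.0%, against 0.72% of all genes tested). Fzd2 read 475 and 905 in Control and 300.2 and 501 with LPS, and Fzd6 161 and 154 in Control and 105 and 85.3 with LPS. Fzd2 lost its call without Control 2 (adjusted p up to 0.0597) and Fzd6 lost its call without Control 1, LPS 1, Control 2 or LPS 2 (adjusted p up to 0.249).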
